A study of Mus musculus with 6 samples.

Results

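Autophagy is the process by which a cell wraps part of its own cytoplasm in a new double membrane and delivers it to the lysosome. A kinase complex around ULK1 starts the process, and a lipid kinase complex around PIK3C3 marks the site with the lipid PI3P. Membrane is then supplied, proteins of the ATG8 family (LC3 and GABARAP) are coupled to it by a ubiquitin-like conjugation system, receptors such as SQSTM1 tie cargo to them, and the closed vesicle fuses with the lysosome. In macrophages the same proteins take part in the removal of microbes, damaged organelles and protein aggregates. The genes described here are the 34 genes of this machinery on a list of gene names, each found once among the 22248 genes with a deposited expression value. The rule uses gene names and no measured value.

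They were measured by RNAseq of resting bone-marrow-derived macrophages (BMDMs), marrow cells cultured with macrophage colony-stimulating factor until they become macrophages, of C57BL/6 mice labelled as postnatal week 10. The 3 control libraries came from Lyz2cre mice and the 3 CITED2-deficient libraries from Cited2fl/fl:Lyz2cre mice, so both groups carried Cre recombinase and only the second carried the floxed *Cited2* alleles. CITED2 is a transcriptional coregulator, and Cre made from the *Lyz2* locus acts mainly in myeloid cells, so cells of other lineages in a culture can keep *Cited2*. The comparison asks how loss of CITED2 alters gene expression in unstimulated macrophages. The sources used here do not tie each library to 1 mouse, so p-values measure the spread between these libraries. Levels are FPKM (fragments per kilobase of transcript, scaled to the mapped total of a library), which divide by transcript length and can be compared between genes.

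The control libraries held *Cited2* itself at 71.7, 79.3 and 75.5 FPKM, against 9.27, 7.22 and 7.53 FPKM after deletion, so every library followed its label. Depth, recovered from the steps between low values, was 17289283 to 18952075 fragments in control and 22583993 to 26100415 in CITED2-deficient BMDMs, a ratio of means of 1.34, and it moved with genotype. Of 8 macrophage markers, 5 fell and 1 rose, and their summed FPKM was 5946 to 6013 in control and 5377 to 5468 in CITED2-deficient libraries, with *Adgre1* at 1748 FPKM or more everywhere. Of 10 fibroblast or stromal markers, 8 could be tested and all 8 rose. Their summed FPKM was 54.0 to 63.8 in control and 206 to 599 in CITED2-deficient libraries, and CITED2-deficient replicate 1 held *Col1a1* at 305 FPKM, while the other two libraries of its group held it at 62.0 and 62.6 FPKM. The part of these cells in the results below was not tested, and in bulk RNA fewer macrophages and less RNA per macrophage cannot be told apart. Of 9 tested markers of neutrophils and their precursors, 7 fell and 1 rose, with summed levels of 744 to 813 FPKM in control and 662 to 780 FPKM in CITED2-deficient libraries. *Mpo*, a granule gene of precursors named after its values had been seen, went from 16.2 ± 2.32 to 1.95 ± 0.271 FPKM (SD, n = 3 each). *S100a9*, the most abundant marker of this list, was at 270 ± 14.2 and 251 ± 25 FPKM, with overlap between groups. *Ltf*, the marker that rose, went from 94.3 ± 4.77 to 177 ± 13.2 FPKM. The part of neutrophils and their precursors in the results was not tested either. Summed markers of T or NK, B, dendritic, erythroid or megakaryocyte, and mast cells stayed under 8 FPKM per list in every library, with no listed marker at 0 throughout.

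Most of the autophagy genes that changed fell by a modest amount in CITED2-deficient BMDMs. All 5 ATG8 family genes fell, with mean FPKM differences from -13.4% to -31.3%, as did *Ulk1*, *Uvrag*, *Atg16l2* and the cargo receptors *Nbr1* and *Calcoco1*. *Sqstm1*, the most abundant of the 34, rose by 22.5%, and *Atg13* rose by 20.6%. On log2(FPKM + 1), tested with limma over 11687 genes with Benjamini-Hochberg adjustment and a threshold of 0.05, 2 of the 34 genes rose, 17 fell and 15 did not pass. Of all tested genes 51.3% passed, with 16.7% that rose and 34.6% that fell, beside 5.88% and 50.0% of the autophagy genes. The median log2 fold change was -0.15 for the autophagy genes and -0.10 for all tested genes. Groups did not overlap for 25 of the 34 genes, 3 higher and 22 lower, and for 59.9% of all tested genes, 19.0% higher and 40.9% lower. None of the 34 changed at least 2-fold, a size that 3.72% of tested genes passed upward and 1.54% downward.

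The direction of small changes depended on how libraries were scaled. After median-ratio scaling, which sets the typical gene to no change, the median over all genes moved up by 0.094 on the log2 scale, and 4 of the 34 genes rose and 9 fell, beside 23.1% and 21.3% of all tested genes. The share of upward calls went from 10.5% to 30.8% among the autophagy genes and from 32.5% to 52.0% among all genes. With quantile normalization it was 16.7% and 42.0%. Under it 3 of the 34 genes rose and 15 fell, beside 19.4% and 26.7% of all tested genes. The calls of 11 genes held under all 17 alternatives, namely the rises of *Sqstm1* and *Atg13* and the falls of *Ulk1*, *Uvrag*, *Atg16l2*, *Map1lc3a*, *Map1lc3b*, *Gabarap*, *Gabarapl1*, *Nbr1* and *Calcoco1*.

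**Figure D1:**
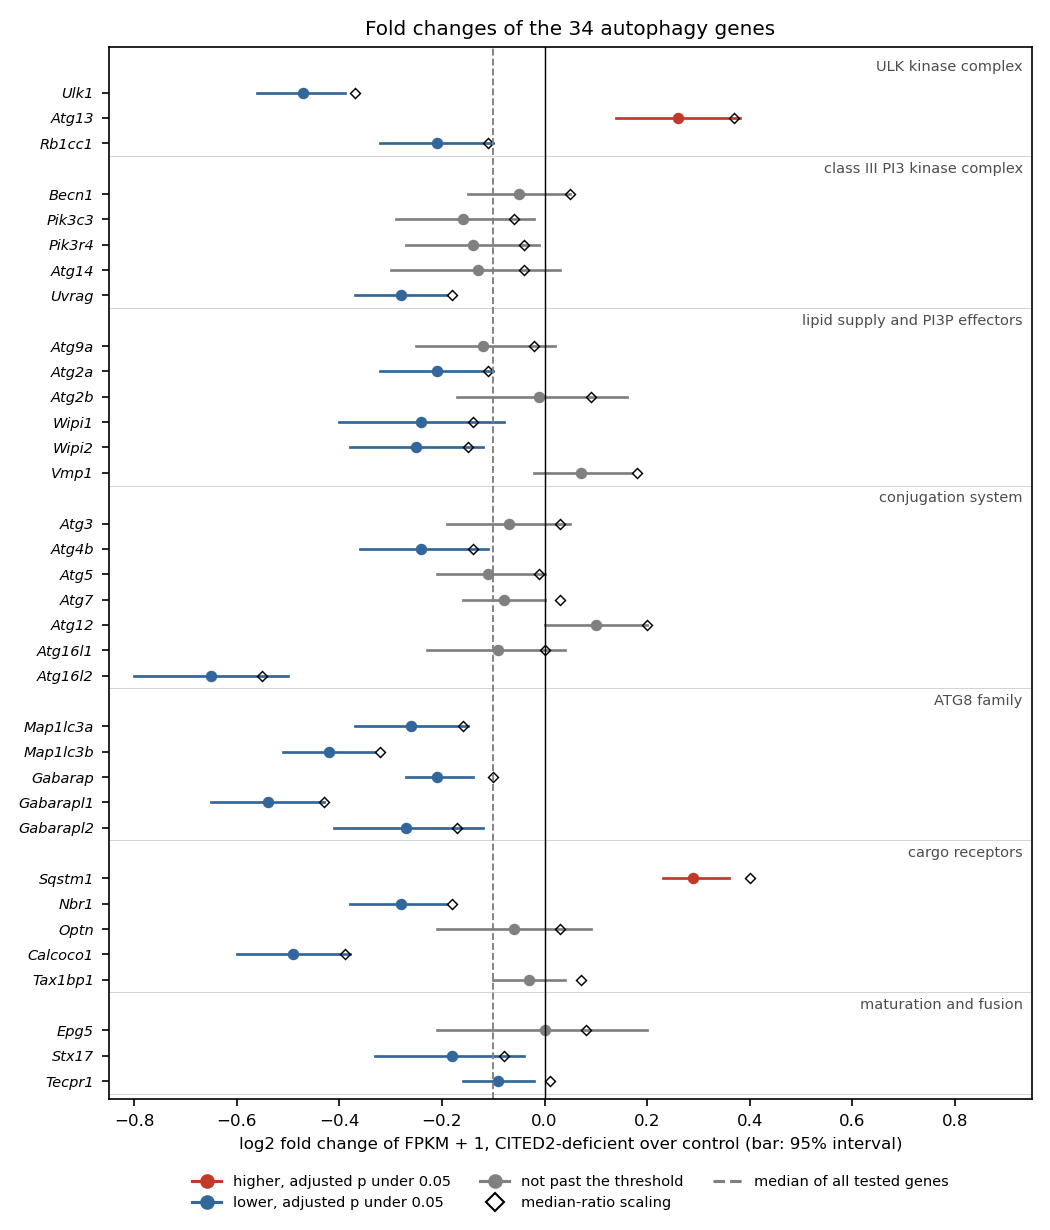
Log2 fold change of FPKM + 1 (horizontal axis, CITED2-deficient over control, 3 libraries each) for the 34 autophagy genes (vertical axis, grouped by role). Points are limma estimates, bars their 95% intervals, the dashed line is the median of all 11687 tested genes, and 17 genes fell, 2 rose and 15 did not pass the threshold.

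All 34 genes were expressed. Their mean FPKM over the 6 libraries ran from 4.14 for *Epg5* to 650 for *Sqstm1*, with a median of 31.3 against 15.1 for all tested genes, and 27 of the 34 lay above that general median. After *Sqstm1* came *Gabarap* at 390, *Tecpr1* at 244, *Gabarapl1* at 129, *Vmp1* at 118 and *Tax1bp1* at 100 FPKM. Replicates agreed closely. The median coefficient of variation was 4.44% in control and 3.15% in CITED2-deficient libraries, the highest was 9.27%, and each gene rested on 283 to 22963 recovered fragments per library.

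**Figure D2:**
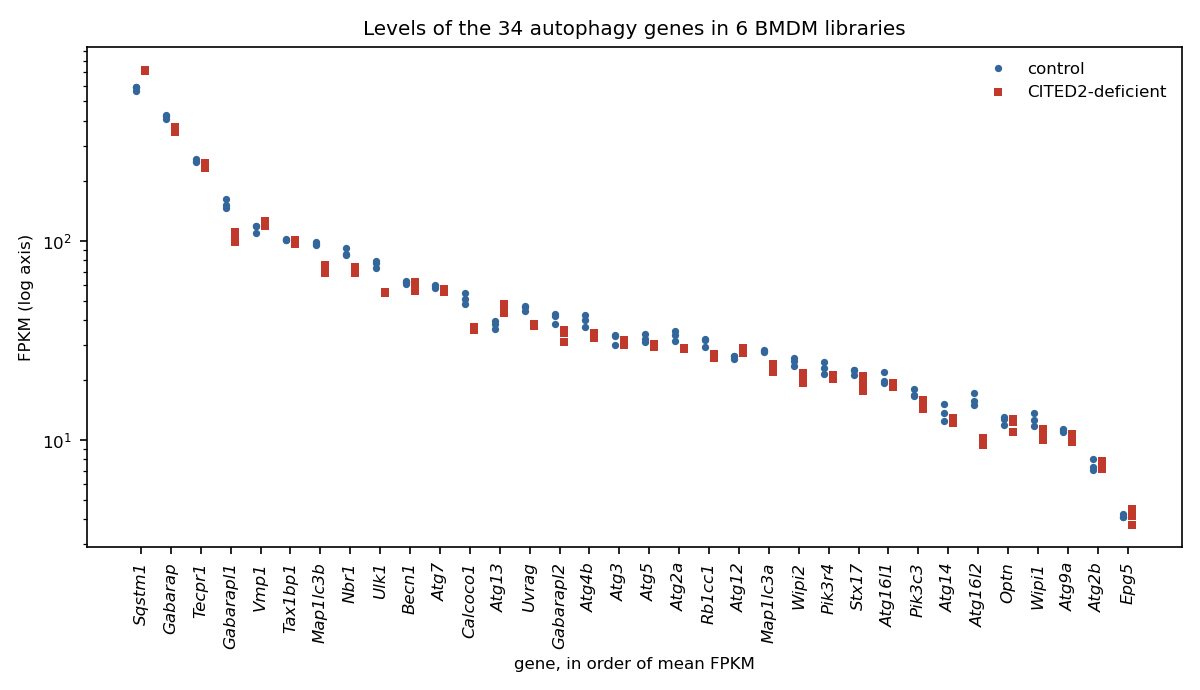
FPKM (vertical, log axis) of the 34 autophagy genes in order of mean FPKM (horizontal axis), with 3 control libraries as circles and 3 CITED2-deficient libraries as squares. Levels run from about 4.14 FPKM for *Epg5* to 650 FPKM for *Sqstm1*, and the genotypes lie close together relative to this range.

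Promoter sequences from RefSeq (build GRCm38.p6) are given for the genes on which the pattern turns, the most abundant gene that rose (*Sqstm1*), the ATG8 gene with the largest fall (*Gabarapl1*) and the starting kinase (*Ulk1*). Each runs 5′ to 3′ on the gene's strand from 250 bases before the start to 50 bases from it, with the start base in capitals, at chr11:50210771-50211070 (minus strand), chr6:129532942-129533241 (plus strand) and chr5:110810032-110810331 (minus strand). Their G and C content was 63.3%, 46.3% and 68.0%.
Sqstm1: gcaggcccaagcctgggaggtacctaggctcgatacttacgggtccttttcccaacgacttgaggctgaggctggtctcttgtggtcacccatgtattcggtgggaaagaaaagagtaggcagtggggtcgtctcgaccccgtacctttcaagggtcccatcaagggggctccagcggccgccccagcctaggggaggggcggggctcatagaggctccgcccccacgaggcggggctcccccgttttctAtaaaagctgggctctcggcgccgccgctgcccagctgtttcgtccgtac
Gabarapl1: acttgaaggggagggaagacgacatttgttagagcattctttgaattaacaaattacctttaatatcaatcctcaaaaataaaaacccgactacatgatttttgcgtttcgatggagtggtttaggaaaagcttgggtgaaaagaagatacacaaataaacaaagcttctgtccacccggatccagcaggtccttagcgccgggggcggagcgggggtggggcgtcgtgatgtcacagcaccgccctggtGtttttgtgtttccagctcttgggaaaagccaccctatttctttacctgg
Ulk1: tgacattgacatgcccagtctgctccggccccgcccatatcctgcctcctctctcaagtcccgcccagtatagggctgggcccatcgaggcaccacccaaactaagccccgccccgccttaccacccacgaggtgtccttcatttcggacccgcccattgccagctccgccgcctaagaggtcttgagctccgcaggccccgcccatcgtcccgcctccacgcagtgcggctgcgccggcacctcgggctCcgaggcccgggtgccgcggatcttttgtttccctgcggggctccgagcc

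Promoters of 27 of the 34 genes were matched, in 31 windows. The letters CACGTG, an E-box core that reads the same on both strands and that factors of the TFEB and TFE3 kind can bind, were in 4 of these 27 genes (14.8%) and in 8.09% of all 27025 genes with a promoter window. The longer TCACGTGA, which holds the core and also reads the same on both strands, was in 1 of the 27 (3.70%) and in 1.12% of all genes. The core occurs 5 times in these 4 genes, 2 times in *Atg3* and once each in *Atg5*, *Atg7* and *Atg14*. The *Atg7* window (from 114670846, plus strand) lies inside its gene model, which starts at 114643097. That of *Atg14* (up to 47568684, minus strand) lies inside a model that reaches 47570649. Both windows thus belong to starts within the gene as measured here. The 4 genes with the core did not pass the expression test, and none of the 17 promoter-matched genes that passed it held these letters within the window. With a share of 8.09% over all genes, few matches are due among 17 genes, and a link between core and call was not tested. The 30 bases around 1 match in each gene follow on the gene's strand, with TCACGTGA in *Atg3* and CACGTG in the others in capitals, at chr16:45158746-45158775 (plus), chr10:44268313-44268342 (plus), chr6:114670952-114670981 (plus) and chr14:47568418-47568447 (minus).
Atg3: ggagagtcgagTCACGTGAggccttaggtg
Atg5: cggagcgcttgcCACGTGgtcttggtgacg
Atg7: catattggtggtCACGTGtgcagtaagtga
Atg14: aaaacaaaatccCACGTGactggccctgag

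In the ULK complex the kinase gene fell and a subunit gene rose. *Ulk1* (ENSMUSG00000029512, chromosome 5, 110784488 to 110810097, minus strand in mm10), which encodes the kinase that starts autophagosome formation, had FPKM values of 77.5, 73.0 and 78.6 in control and 55.1, 54.5 and 54.7 in CITED2-deficient libraries. All CITED2-deficient libraries lay below all controls. The means were 76.4 ± 2.98 and 54.8 ± 0.341 (SD, n = 3 each), a difference of -28.3%, with a log2 fold change of -0.47 (standard error 0.04, limma adjusted p = 9.28e-06). *Atg13* (ENSMUSG00000027244, chromosome 2, 91674618 to 91710576, minus strand), which encodes the subunit that links the kinase to its scaffold, went the other way. Its FPKM was 38.0, 36.0 and 39.6 in control and 43.1, 45.9 and 48.1 in CITED2-deficient libraries, again without overlap. The log2 fold change was 0.26 (standard error 0.05, limma adjusted p = 0.00272). The ratio of *Atg13* to *Ulk1* FPKM, chosen after the values had been seen and not tested, was 0.490 to 0.504 in control and 0.782 to 0.879 in CITED2-deficient libraries. *Rb1cc1*, the gene of the scaffold FIP200, fell from 31.0 ± 1.48 to 26.6 ± 0.588 FPKM (SD, n = 3), with a limma adjusted p of 0.00518 as deposited and 0.0717 after median-ratio scaling.

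In the PIK3C3 complex, 1 of 5 genes fell (20%, beside 34.6% of all tested genes). *Uvrag* (ENSMUSG00000035354, chromosome 7, 98885021 to 99141141, minus strand), whose product joins the form of the complex that works on endosomes, had 44.3, 47.0 and 46.4 FPKM in control and 37.2, 37.6 and 38.2 FPKM in CITED2-deficient libraries. The groups stood well apart, with a log2 fold change of -0.28 (standard error 0.04, limma adjusted p = 0.00034). *Atg14*, whose product takes the place of UVRAG in the form that builds autophagosomes, had 13.6, 15.1 and 12.5 FPKM in control and 12.3, 12.8 and 12.1 in CITED2-deficient libraries. These groups overlapped, and the 95% interval of the log2 fold change was -0.30 to 0.03. *Becn1*, the gene of the regulatory subunit beclin 1, lay at 60.8 to 62.8 FPKM in control and 56.1 to 61.7 in CITED2-deficient libraries, with an interval of -0.15 to 0.05. The gene *Cntd1* on the opposite strand shares 43.9% of the exonic bases of *Becn1* and was at 0.146 and 0.171 FPKM. *Pik3c3*, the lipid kinase, and *Pik3r4*, its partner VPS15, were lower without overlap by -0.16 and -0.14 on the log2 scale, with limma adjusted p-values of 0.0555 and 0.0648. *Pik3r4* passed the threshold without control replicate 2 (limma adjusted p = 0.0269) and with array weights (0.0474). Both *Pik3c3* and *Pik3r4* passed in limma-voom on the recovered fragments (limma adjusted p = 0.0214 and 0.0286).

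Of 6 genes for membrane supply and PI3P binding, 3 fell as deposited (50%, beside 34.6% of all tested genes). None of these falls was called after median-ratio scaling, under which 21.3% of all tested genes fell. *Atg2a*, which encodes a protein that moves lipid into the growing membrane, had 33.6, 35.0 and 31.3 FPKM in control and 28.8, 28.5 and 28.8 FPKM in CITED2-deficient libraries. Its log2 fold change was -0.21 (standard error 0.05, limma adjusted p = 0.00623, and 0.115 after median-ratio scaling). Its paralog *Atg2b* was at 7.04 to 8.06 FPKM in control and 7.16 to 7.82 in CITED2-deficient libraries, with full overlap. *Wipi2* and *Wipi1* encode PI3P-binding proteins, WIPI2 being the one that recruits the conjugation machinery. *Wipi2* had 25.7, 23.5 and 25 FPKM in control and 21.7, 20.9 and 19.3 in CITED2-deficient libraries (limma adjusted p = 0.00613, and 0.0541 after median-ratio scaling). *Wipi1* had 13.7, 11.8 and 12.6 FPKM in control and 10.6, 10.0 and 11.3 in CITED2-deficient libraries, with a log2 fold change of -0.24 and a limma adjusted p of 0.0202. The *Wipi1* call was lost without control replicate 1 (limma adjusted p = 0.0757) and without CITED2-deficient replicate 2 (0.0688). *Atg9a*, the gene of the transmembrane scramblase of autophagy vesicles, was lower without overlap (-0.12, limma adjusted p = 0.129), and 31.8% of its exonic bases are shared with the transcript *Gm29253* on the same strand. *Vmp1*, the gene of a scramblase of the endoplasmic reticulum, had 109 to 118 FPKM in control and 118 to 125 in CITED2-deficient libraries. Its log2 fold change was 0.07 with a limma adjusted p of 0.157, and 0.18 with a limma adjusted p of 0.00556 after median-ratio scaling.

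In the conjugation system, 2 of 7 genes fell (28.6%, beside 34.6% of all tested genes). *Atg16l2* showed the largest fall of all 34 genes. *Atg16l2* (ENSMUSG00000047767, chromosome 7, 101263034 to 101302251, minus strand), the less studied paralog of *Atg16l1*, had 17.2, 15 and 15.7 FPKM in control and 9.82, 10.2 and 9.38 FPKM in CITED2-deficient libraries. The lowest control lay well above the highest CITED2-deficient library, and the mean difference was -38.6%. The log2 fold change was -0.65 (standard error 0.07, limma adjusted p = 4.66e-05). Its neighbor *Fchsd2* on the opposite strand, which overlaps it by 25 exonic bases (0.295% of those of *Atg16l2*), fell from 23.8 to 7.19 FPKM. *Atg16l1*, whose product brings the conjugation machinery to the membrane, had 19.2, 19.8 and 21.8 FPKM in control and 19.2, 18.4 and 19.1 in CITED2-deficient libraries, so its groups overlapped. *Atg4b*, the gene of the main protease that trims ATG8 proteins, had 39.9, 42.5 and 36.8 FPKM in control and 33.4, 32.6 and 34.5 in CITED2-deficient libraries. Its limma adjusted p was 0.00644 as deposited and 0.0854 after median-ratio scaling. The enzymes that activate and transfer the ubiquitin-like proteins did not pass, with *Atg7* (E1-like) at 58.0 to 59.9 and 55.1 to 57.4 FPKM, *Atg3* (E2-like) at 30.1 to 33.5 and 30.1 to 31.7 FPKM, and *Atg5*, the partner of ATG12, at 30.9 to 33.8 and 29.2 to 30.3 FPKM. *Atg12*, one of the ubiquitin-like proteins, had 26.4, 25.6 and 26.4 FPKM in control and 27.2, 28.9 and 28.2 FPKM in CITED2-deficient libraries. The groups were apart, with a log2 fold change of 0.10 and a limma adjusted p of 0.0786, against 0.00497 after median-ratio scaling and 0.0163 after quantile normalization.

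The ATG8 family was the only one of the 7 roles in which every listed gene fell, beside 34.6% of all tested genes. These small ubiquitin-like proteins coat the autophagosome membrane, in the LC3 branch (*Map1lc3a*, *Map1lc3b*) and the GABARAP branch (*Gabarap*, *Gabarapl1*, *Gabarapl2*). *Gabarapl1* (ENSMUSG00000030161, chromosome 6, 129533160 to 129542346, plus strand) had 146, 161 and 151 FPKM in control and 110, 98.8 and 106 FPKM in CITED2-deficient libraries. The means were 153 ± 7.62 and 105 ± 5.73 (SD, n = 3 each), with a log2 fold change of -0.54 (standard error 0.05, limma adjusted p = 2.21e-05). The antisense gene *1700101I11Rik* shares 28.3% of its exonic bases and was at 0.0952 and 0.0868 FPKM. *Map1lc3b* (ENSMUSG00000031812, chromosome 8, 121590361 to 121598760, plus strand), the LC3B gene that is most often used as an autophagosome marker, came next. It had 94.9, 95.7 and 98.3 FPKM in control and 71.2, 68.7 and 75.7 FPKM in CITED2-deficient libraries, with a log2 fold change of -0.42 (standard error 0.04, limma adjusted p = 3.45e-05). *Gabarap* (ENSMUSG00000018567, chromosome 11, 69991143 to 69994951, plus strand), the most abundant member, had 421, 426 and 407 FPKM in control and 371, 353 and 363 FPKM in CITED2-deficient libraries. Its fall of -0.21 was smaller (standard error 0.03, limma adjusted p = 0.000463). *Map1lc3a* went from 27.9 ± 0.348 to 23.2 ± 1.08 FPKM and *Gabarapl2* from 40.8 ± 2.47 to 33.7 ± 2.49 FPKM (SD, n = 3 each), with limma adjusted p-values of 0.00169 and 0.00677. No control library overlapped a CITED2-deficient library for any of the 5 genes, and all 5 were lower under both other scalings, although *Gabarapl2* no longer passed after median-ratio scaling (limma adjusted p = 0.0586).

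Summed over the family, FPKM was 727, 753 and 726 in control and 610, 575 and 602 in CITED2-deficient libraries, a mean difference of -19.0%. An exact permutation test of the sum gave p = 0.1, the smallest two-sided value it can give here. All 5 genes had been seen to be lower before, so this test adds no support. The makeup of the family also moved. *Gabarap* held 56.8% ± 0.914 of the summed FPKM in control and 60.8% ± 0.543 in CITED2-deficient libraries (SD, n = 3 each), while *Gabarapl1* held 20.8% ± 0.634 and 17.6% ± 0.438. Neither share overlapped between groups. These shares were not tested. A scaling by 1 factor per library leaves them as they are, while quantile normalization does not.

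**Figure D3:**
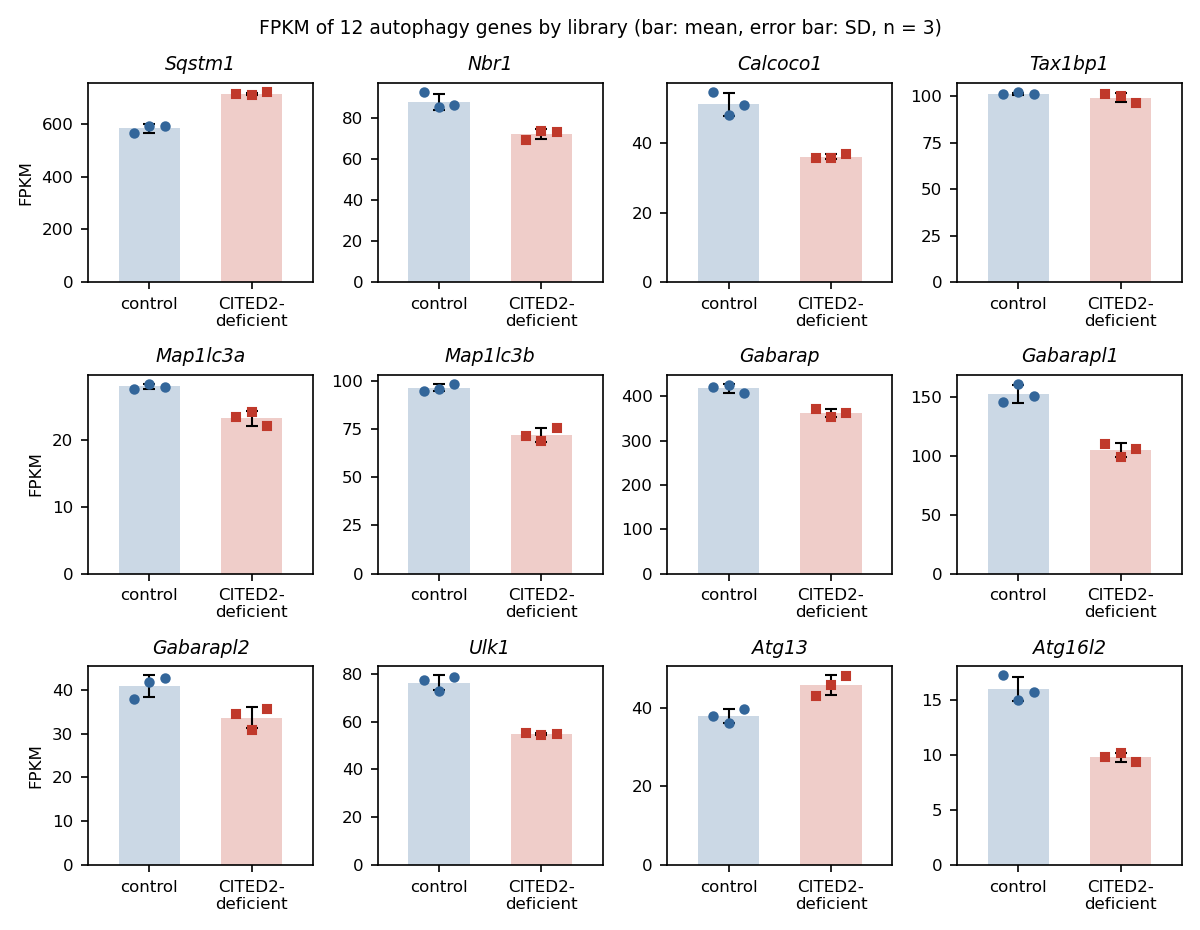
FPKM (vertical axes, from 0) of 12 autophagy genes in control and CITED2-deficient BMDMs, with each point 1 library, bars the mean and error bars the SD (n = 3). *Sqstm1* and *Atg13* are higher and the 5 ATG8 genes, *Nbr1*, *Calcoco1*, *Ulk1* and *Atg16l2* lower in CITED2-deficient libraries without overlap, while the groups overlap for *Tax1bp1*.

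Among cargo receptors, 1 of 5 rose and 2 fell (20% and 40%, beside 16.7% and 34.6% of all tested genes). *Sqstm1* (ENSMUSG00000015837, chromosome 11, 50199366 to 50210827, minus strand), which encodes p62, the receptor for ubiquitinated cargo that is itself degraded by autophagy, had 565, 593 and 594 FPKM in control and 715, 710 and 721 FPKM in CITED2-deficient libraries. Every CITED2-deficient library lay well above the highest control. The means were 584 ± 16.3 and 715 ± 5.05 (SD, n = 3 each), with a log2 fold change of 0.29 (95% interval 0.23 to 0.36, limma adjusted p = 2.86e-05), and 0.40 after median-ratio scaling. *Mrnip* on the opposite strand shares 17.3% of its exonic bases and was at 1.18 and 0.975 FPKM. *Nbr1* (ENSMUSG00000017119, chromosome 11, 101552149 to 101581951, plus strand), whose product is a partner of p62 in binding ubiquitinated cargo, moved the other way. It had 92.2, 85.1 and 86.0 FPKM in control and 69.1, 73.7 and 72.8 FPKM in CITED2-deficient libraries, with a log2 fold change of -0.28 (standard error 0.04, limma adjusted p = 0.000494). *Calcoco1* (ENSMUSG00000023055, chromosome 15, 102706777 to 102722178, minus strand), a receptor for the endoplasmic reticulum, had 54.7, 48.2 and 51.0 FPKM in control and 35.7, 35.8 and 37.0 FPKM in CITED2-deficient libraries. Its log2 fold change was -0.49 (standard error 0.05, limma adjusted p = 4.27e-05). The ubiquitin-binding receptors *Tax1bp1* and *Optn* overlapped between groups, at 101 to 102 and 96.4 to 101 FPKM and at 11.9 to 13.0 and 11.0 to 12.7 FPKM. Their 95% intervals on the log2 scale were -0.10 to 0.04 and -0.21 to 0.09. The ratio of *Sqstm1* to *Map1lc3b* FPKM, chosen after the values had been seen and not tested, was 5.96 to 6.19 in control and 9.52 to 10.3 in CITED2-deficient libraries.

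Of the 3 late-acting genes, 2 were called lower by small amounts (66.7%, beside 34.6% of all tested genes). *Stx17*, the gene of the SNARE protein of the closed autophagosome, had 22.5, 21.2 and 22.3 FPKM in control and 19.4, 20.8 and 17.6 in CITED2-deficient libraries (-0.18, limma adjusted p = 0.0382). *Tecpr1*, whose product binds the ATG12-ATG5 conjugate and damaged lysosomes, had 249, 257 and 250 FPKM in control and 231, 234 and 246 in CITED2-deficient libraries (-0.09, limma adjusted p = 0.0404, and 0.01 on the log2 scale after median-ratio scaling). Both calls were lost when any of several libraries was left out. They were also lost after median-ratio scaling (limma adjusted p = 0.316 for *Stx17* and 0.785 for *Tecpr1*). After quantile normalization only that of *Stx17* was lost (limma adjusted p = 0.161, against 0.0407 for *Tecpr1*). The limma adjusted p of *Stx17* was 0.103 without control replicate 1, 0.097 without control replicate 3, 0.0698 without CITED2-deficient replicate 1 and 0.12 without CITED2-deficient replicate 3. That of *Tecpr1* passed only without CITED2-deficient replicate 3, and was 0.0705, 0.116 and 0.0772 without control replicates 1, 2 and 3 and 0.115 and 0.101 without CITED2-deficient replicates 1 and 2. *Epg5*, the gene of a tether between autophagosome and lysosome, was at 4.09 to 4.22 FPKM in control and 3.75 to 4.52 in CITED2-deficient libraries, with an interval of -0.21 to 0.20.

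The summed stromal markers stood highest in CITED2-deficient replicate 1. Without that library, 2 of the 34 autophagy genes rose and 15 fell, and over the 6 libraries left out in turn 2 rose each time and 14 to 17 fell. *Sqstm1* was at 715 FPKM in that library and at 710 and 721 in the others of its group, and *Gabarapl1* was at 110 against 98.8 and 106. Those other libraries still held *Col1a1* at 62.0 and 62.6 FPKM, against 14.2 to 16.6 FPKM in control. Leaving out 1 library thus did not remove the stromal signal, and its part in the calls was not tested.

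A second list of 49 genes that act with or upstream of these 34 showed a similar picture. Of the 48 that could be tested, 3 rose, 28 fell and 17 did not pass, with a median log2 fold change of -0.14. These are 6.25% and 58.3% of the list, beside 16.7% and 34.6% of all tested genes. After median-ratio scaling 5 rose and 12 fell, beside 23.1% and 21.3% of all tested genes. The receptor gene *Ccpg1* was under the level needed for a test, at 0.159 FPKM or less in every library. Within each role the largest falls were as follows. In the kinase and lipid kinase complexes they were in *Ulk2*, the close relative of *Ulk1* (31.8 to 22.1 FPKM, -0.50, limma adjusted p = 2.03e-05), and in *Rubcn*, which encodes an inhibitor of the UVRAG form of the lipid kinase complex that is needed for LC3-associated phagocytosis (28.0 to 20.6 FPKM, -0.43, limma adjusted p = 0.000173). In the later steps they were in *Wdr45*, a PI3P-binding relative of the WIPI genes (-0.54, limma adjusted p = 0.00101), *Atg4c*, a protease of the ATG4 family (-0.34, limma adjusted p = 0.00282), and *Vps33a*, a subunit of the HOPS tether of lysosomes (-0.37, limma adjusted p = 1.75e-05).

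Of 9 tested receptor genes outside the list of 34, 1 rose and 5 fell (11.1% and 55.6%, beside 16.7% and 34.6% of all tested genes). After median-ratio scaling 1 rose and 1 fell (11.1% each, beside 23.1% and 21.3%). *Ncoa4*, the gene of the receptor that carries ferritin into autophagosomes, had 165, 169 and 170 FPKM in control and 110, 118 and 117 in CITED2-deficient libraries. Its fall of 31.6% was well outside the spread (-0.55, limma adjusted p = 2.3e-06). *Retreg1*, which encodes a receptor for sheets of the endoplasmic reticulum, had 56.4, 55.9 and 56.7 FPKM in control and 64.7, 65.7 and 66.6 in CITED2-deficient libraries (0.22, limma adjusted p = 0.000508). Of the other receptors of the same organelle, *Calcoco1* and *Tex264* moved down, the second named after its values had been seen (97.0 to 86.5 FPKM, limma adjusted p = 0.0156, and 0.314 after median-ratio scaling). *Sec62*, also such a receptor, did not pass (67.1 to 65.3 FPKM, limma adjusted p = 0.325, and 0.145 after median-ratio scaling). The *Tex264* call was lost without control replicate 1 or 3 (limma adjusted p = 0.0589 and 0.0513) and without CITED2-deficient replicate 2 (0.0512).

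Of 14 genes of upstream control, 2 rose and 7 fell as deposited (14.3% and 50%, beside 16.7% and 34.6% of all tested genes). After median-ratio scaling 4 rose and 2 fell (28.6% and 14.3%, beside 23.1% and 21.3%). After quantile normalization 2 rose and 3 fell (14.3% and 21.4%, beside 19.4% and 26.7%). The balance of directions thus depended on the scaling, as it did over all tested genes. The lysosomal kinase complex mTORC1 holds autophagy back, and it is given its place on the lysosome by Rag GTPases, on which folliculin (*Flcn*) acts. *Flcn* had 108, 106 and 113 FPKM in control and 68.5, 69.2 and 75.1 FPKM in CITED2-deficient libraries (-0.61, limma adjusted p = 4.48e-06), the largest fall in the second list. *Rptor*, the gene of the mTORC1 subunit raptor, had 29.8, 30.5 and 31.8 FPKM in control and 39.7, 40.4 and 38.3 FPKM in CITED2-deficient libraries (0.35, limma adjusted p = 0.000136), the largest rise in either list. The groups did not overlap for either gene. *Mtor*, the kinase itself, had 17.4 to 18.8 FPKM in control and 18.3 to 19.2 in CITED2-deficient libraries, with a limma adjusted p of 0.386, and 0.04 after median-ratio scaling.

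The transcription factors TFEB, TFE3 and MITF are related and can drive autophagy and lysosome genes. *Tfeb* had 85.2, 90.6 and 84.6 FPKM in control and 70.5, 79.2 and 82.4 in CITED2-deficient libraries (-0.17, limma adjusted p = 0.0374). *Tfe3* had 79.0, 76.4 and 78.7 FPKM in control and 71.3, 72.0 and 73.7 in CITED2-deficient libraries (-0.11, limma adjusted p = 0.0217). Neither call held after median-ratio scaling (limma adjusted p = 0.436 and 0.91) or quantile normalization (0.0618 and 0.0594). *Tfeb* was also not called without control replicate 1, 2 or 3 (limma adjusted p = 0.0618, 0.119 and 0.057) or CITED2-deficient replicate 1 (0.0918). *Tfe3* was not called without control replicate 1 or 3 (limma adjusted p = 0.0733 and 0.0673) or CITED2-deficient replicate 1 or 2 (0.0637 and 0.0544). *Mitf*, named after its values had been seen because it completed the 3 rises, had 50.3, 47.4 and 47.8 FPKM in control and 56.6, 58.0 and 56.4 in CITED2-deficient libraries (0.23, limma adjusted p = 0.00095).

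**Figure D4:**
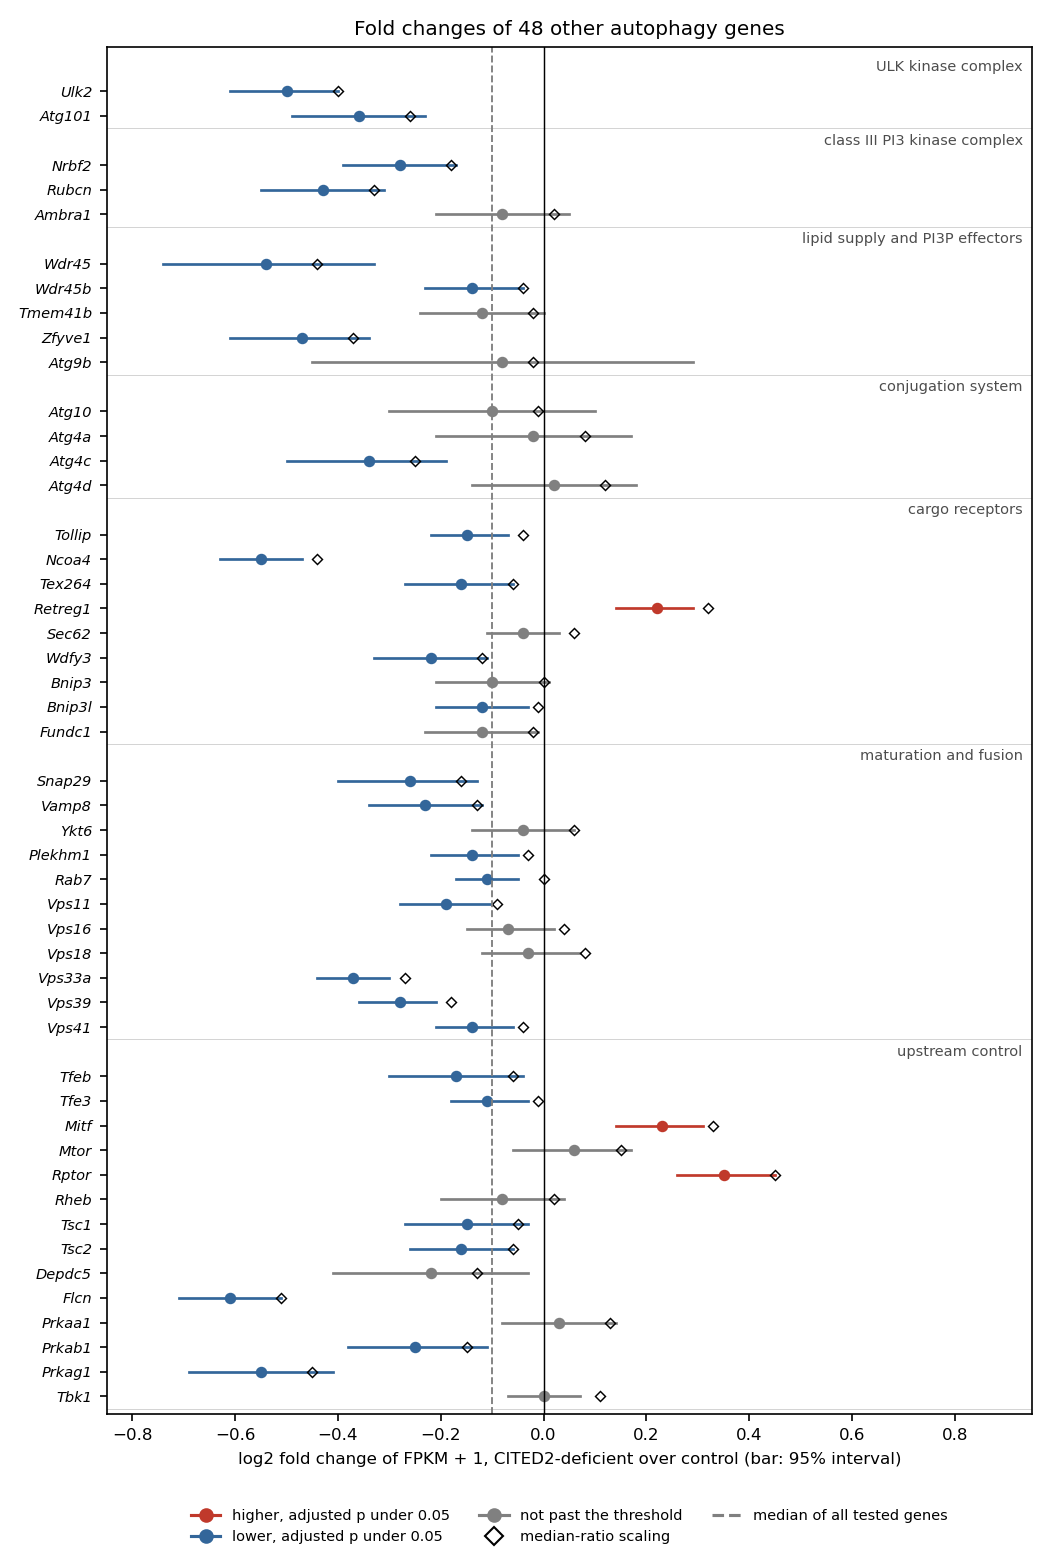
Log2 fold change of FPKM + 1 (horizontal axis, CITED2-deficient over control, 3 libraries each) for the 48 tested genes of the second list (vertical axis, grouped by role). Points are limma estimates, bars their 95% intervals and the dashed line the median of all tested genes, with *Flcn* lowest at -0.61 and *Rptor* highest at 0.35.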

How the data were processed

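RNA of Lyz2cre and Cited2fl/fl:Lyz2cre BMDMs was sequenced, with 3 libraries each, after removal of ribosomal RNA. Per the labels, the authors mapped reads to mm10 with STAR and deposited FPKM values from Cuffdiff for each gene and library, and the paper names GENCODE as the annotation. The annotation release and every tool version were not given in the sources used here. The paper gives a younger age for the mice than the labels do. FPKM are scaled to library size, so strong changes in some genes can shift all others.

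The 11687 genes whose FPKM averaged 1 or more were tested on log2(FPKM + 1), a scale that understates changes of low genes, with limma 3.58.1 (R 4.3.3), a variance trend and Benjamini-Hochberg adjustment over all of them. The test of Cuffdiff, which works on alignments, was not used. Fragment numbers were recovered with mean transcript lengths of GENCODE vM21, and 21359 of 22239 matched genes (96.0%) were whole to within 0.02 in each of the 6 libraries. Coordinates are from GENCODE vM21 on mm10. The limma step was tested on simulated log2 values with independent noise for each gene.

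The genes, lists and tests were chosen with earlier results of these data known. All 34 genes are named. Of the second list, the largest rise and fall past the threshold in each role are named with *Tfeb*, *Tfe3* and *Mtor*. *Mitf*, *Tex264*, *Sec62*, *Ccpg1* and the markers *Mpo* and *Ltf* were added after their values had been seen. Of the macrophage, stromal and neutrophil marker lists, the member with the highest mean FPKM is named. Alternatives were other pseudocounts (0.1 and 0.5), no filter on low values, a minimum of 5 for the mean FPKM, median-ratio scaling, quantile normalization, no variance trend, array weights, a replicate block, limma-voom on recovered fragments, a call that also needs groups that do not overlap, and each library left out in turn.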

Additional observations from a re-analysis of the deposited data

How the results depend on the processing

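Scaling was the choice that moved most. With median-ratio scaling, 2490 of all tested genes fell against 4044 as deposited, 4 and 9 of the 34 autophagy genes rose and fell, and 5 and 12 of the second list. Under it, 9 autophagy genes, of which *Tecpr1* had passed as deposited and the others had not, turned to positive log2 fold changes, namely *Atg2b* (0.086), *Atg3* (0.032), *Atg7* (0.026), *Atg16l1* (0.0049), *Becn1* (0.050), *Optn* (0.035), *Tax1bp1* (0.075), *Epg5* (0.080) and *Tecpr1* (0.013). With quantile normalization 3 turned, *Atg2b* (0.079), *Optn* (0.0085) and *Epg5* (0.057). With 1 library left out, *Atg2b* ranged from -0.043 to 0.044 and *Epg5* from -0.056 to 0.052. Of the 19 calls, 8 were lost under at least 1 alternative and 3 of these (*Stx17*, *Tecpr1*, *Wipi1*) when a library was left out. Of the 14 other genes named with a result, *Sec62* aside, 10 kept their call under all 17 alternatives. The cause of these differences was not tested, beyond what each setting changes by construction.

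Deviations of same-numbered libraries correlated at 0.014, 0.008 and 0.04, and those of other pairs at -0.052 to 0.035. The replicate numbers thus gave no sign of a pairing, but so few libraries cannot show that none existed. With the replicate block, 2 autophagy genes rose and 15 fell, losing *Stx17* (limma adjusted p = 0.0582) and *Tecpr1* (0.0652), and 3 and 27 of the second list rose and fell. With 3 libraries a group, small differences can be missed, and the printed intervals show how closely each fold change was estimated.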
